A study of Sus scrofa with 16 samples.

Results

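The miRNAs described here are 7 mature sequences of 6 families that are known from white blood cells and inflammatory signalling: miR-150 and miR-155 of lymphocytes, miR-223 of neutrophils and monocytes, both arms of miR-142, which blood-forming cells in general express, and miR-146a and miR-146b of NF-κB feedback. They were followed in the lining of the pig uterus after oral oestradiol-17β. A read was assigned to a miRNA when it was 20 to 26 nt long and its first 20 nt matched. The 7 sequences are 7 of the 23707 groups of such reads (reads that share their first 20 nt) with at least 30 reads in the series. All 7 were found in every sow, with between 51 and 5856 reads per sow, and all 7 passed the filter on low counts.

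The endometrium came from adult sows on day 10 of pregnancy. Controls received the ethanol carrier alone (0 µg/kg/day, sows 1 to 4). The dosed animals received oestradiol by mouth from insemination onward at 0.05 µg/kg/day (sows 5 to 7), 10 µg/kg/day (sows 8 to 11) or 1000 µg/kg/day (sows 12 to 15). All groups were pregnant, and no non-pregnant group was analysed here. Sow 7 was extracted in duplicate, and its 2 libraries were summed, so 16 libraries stand for 15 sows. The uterus was flushed before sampling, and the RNA is that of whole endometrium, with epithelium, stroma, vessels and any blood in them.

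A miRNA is cut from a hairpin precursor, whose 2 arms can each give a mature strand, and it recognises its targets mainly through the seed, bases 2 to 8. miR-150 is abundant in resting B and T lymphocytes, where it holds down the transcription factor MYB. miR-155 rises on activation of lymphocytes and macrophages and represses inhibitors of cytokine signalling such as SOCS1. miR-223 is the typical miRNA of the granulocyte lineage and restrains neutrophil production and inflammasome activity. miR-146a is switched on by NF-κB and represses TRAF6 and IRAK1, the adaptors upstream of it, and miR-146b shares its seed. Leukocytes are a normal part of the endometrium, and their number and kind change with ovarian steroids and in early pregnancy.

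The most abundant read of each of the 7 miRNAs is printed first, since the seed and the 5′ end decide which miRNA a read was assigned to. The capitals mark the seed. The sequences are those of the deposited reads.
miR-150-5p: tCTCCCAAcccttgtaccagtg
miR-155-5p: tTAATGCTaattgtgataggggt
miR-223-3p: tGTCAGTTtgtcaaataccccat
miR-142-3p: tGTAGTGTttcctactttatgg
miR-142-5p: cATAAAGTagaaagcactact
miR-146a-5p: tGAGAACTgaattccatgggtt
miR-146b-5p: tGAGAACTgaattccataggctg
miR-146a and miR-146b share 1 seed and 19 of the first 20 bases. They differ by G18A, with positions counted from 1 at the 5′ end and the base of miR-146a given first. The other 5 seeds are each found in 1 of the 7 sequences. No mature miRNA table was used here, so each miRNA was identified by its known seed, with position 18 separating miR-146a from miR-146b, as the most abundant read group with those bases. In RefSeq's table for Sscrofa11.1, 5 of the 6 families have a gene entry. MIR142 lies between TSPOAP1 and SUPT4H1. MIR155 lies between the lncRNA LOC106505840 and MRPL39, MIR146A between the lncRNA LOC106506539 and PTTG1, and MIR146B between CUEDC2 and LOC102167427. None of the 5 overlaps another listed gene.

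The libraries held 4497096 to 18525580 reads per sow, of which 46.7 to 78.4% were 18 to 26 nt long. All levels below are reads per 1000000 (RPM) of those 18 to 26 nt reads. The sows fall into 3 classes by the length profile of their reads. Class A (sows 1, 2, 5, 8, 9 and 12) held less than 8% short reads (17 to 19 nt). Of the other sows, those of class B (sows 3, 4, 7, 10, 11 and 15) held less than 5% long reads (40 nt and over), and those of class C (sows 6, 13 and 14) held more. Sow 7 is in class B by its summed reads (4.75% long reads), while its 2 libraries had 2.11% and 6.38%. Markers of the labelled tissue were present, with miR-200c of epithelium at 5800.0 ± 841 RPM and miR-143 of stroma and smooth muscle at 55219 ± 19204 RPM. miR-126 of endothelium was at 5584 ± 1116 RPM (SD, n = 15 for each). Of the markers of other tissues, miR-122 of liver was at 19.5 ± 3.49 RPM and miR-1 of skeletal and cardiac muscle at 435 ± 246 RPM. Sow 13 stood apart, with the highest miR-143 (115911 RPM), the highest miR-451a of red cells (3377 RPM) and the highest miR-1 of muscle (1173 RPM) of the 15 sows. Of the other miRNAs of the stroma and smooth muscle list, miR-199a-5p (5738 RPM) and miR-214 (93.9 RPM) were at their lowest in that sow, and miR-145 (3669 RPM) lay within the range of the others. Between sows, the 7 miRNAs had coefficients of variation of 27.5 to 51.1%, beside a median of 25.5% over 1716 read groups with a mean of 20 to 500 RPM.

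miR-146b was the most abundant of the 7, at 324 ± 166 RPM over all sows, and lay above miR-146a in 14 of 15 sows. miR-146a (130.0 ± 61.5 RPM) and miR-150 (121 ± 33.7 RPM) did not separate, since miR-146a was the higher in 7 of 15 sows. miR-223 followed with 90.5 ± 34.9 RPM (below miR-150 in 12 of 15 sows) and miR-142-3p with 56.3 ± 21.4 RPM (below miR-223 in 13 of 15). miR-142-5p (37.3 ± 15.96 RPM) was below miR-142-3p in 15 of 15 sows and did not separate from miR-155 (37.0 ± 10.17 RPM), above which it lay in 9 of 15 (SD, n = 15 for each). For scale, miR-21, an abundant miRNA of most tissues, averaged 109238 RPM. Levels of different sequences also depend on how well each is ligated and amplified, so the order is that of reads at the matched start. For miR-142-5p, that start held 26.4% of the reads that begin within 2 nt of it. Over all those starts the arm had 82.96 to 293 RPM, above the highest miR-155 of any sow (59.99 RPM). The place of miR-142-5p in the order thus depends on the start counted.

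**Figure D1:**
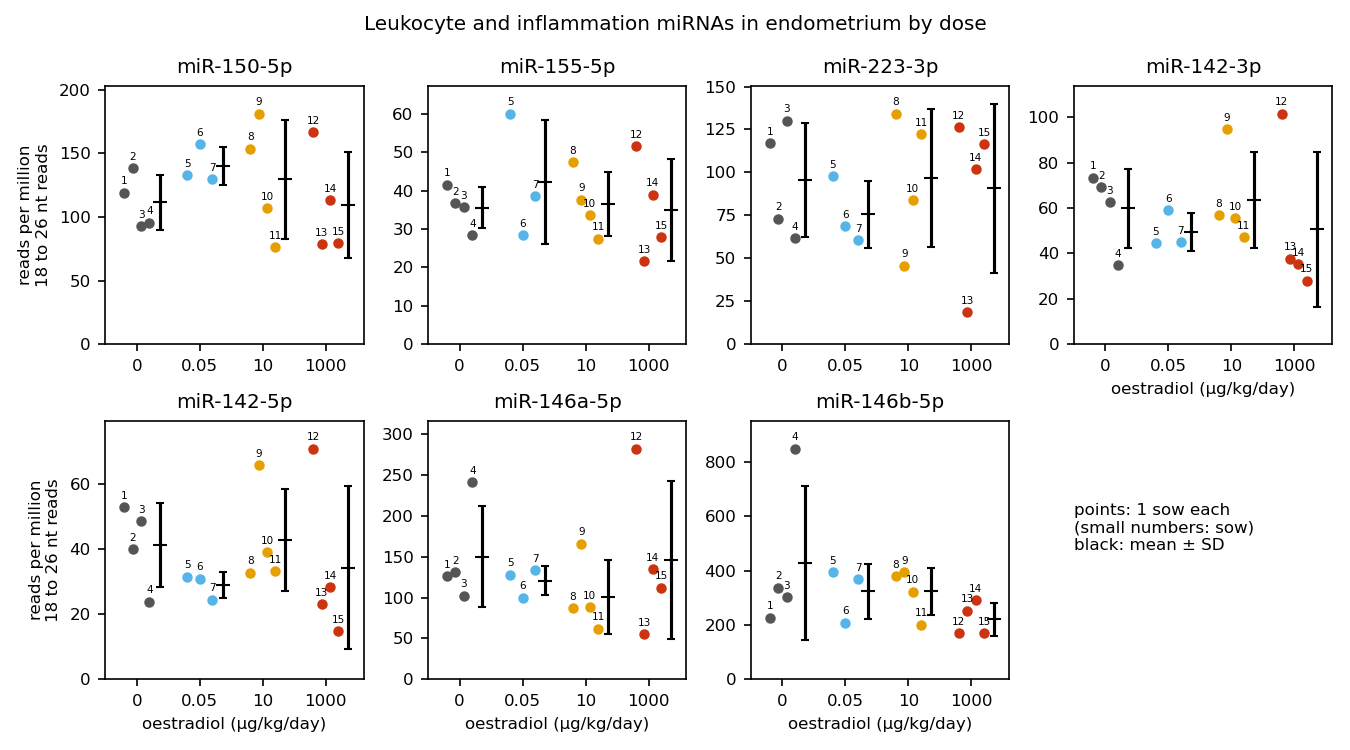
Level of each miRNA in RPM of 18 to 26 nt reads (vertical axis) by oestradiol dose (horizontal axis), with 1 point per sow, the sow's number above it, and the group mean ± SD in black. The dose groups overlap control in every panel, and miR-146b of control sow 4, at 850.0 RPM, stands above all other sows.

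Of the lymphoid miRNAs, miR-150 had 119, 138, 92.5 and 95.5 RPM in control sows, 133, 157 and 129.8 RPM at 0.05, 154, 181, 107 and 76.2 RPM at 10, and 167, 78.6, 113 and 79.2 RPM at 1000 µg/kg/day. Every dose overlapped control, and the highest and the lowest sow of the series (sows 9 and 11) both belong to 10 µg/kg/day. In RNA of whole tissue, fewer cells of a type and less RNA per cell cannot be told apart. The 3 sows at 0.05 all lay above 3 of the 4 control sows, and control sow 2 lay above sows 5 and 7. The means were 109 ± 41.5 RPM at 1000 against 111 ± 21.6 RPM in control (log2 difference 0.01, 95% CI -0.64 to 0.66), 129 ± 46.9 RPM at 10 (log2 difference 0.36, CI -0.28 to 1.01) and 139.8 ± 14.9 RPM at 0.05 (log2 difference 0.32, CI -0.38 to 1.02). The difference at 10 was 0.02 without sow 9 and 0.58 without sow 11, and that at 0.05 was 0.14 without sow 6. None passed edgeR's quasi-likelihood test with Benjamini-Hochberg adjustment over 9951 read groups (adjusted p 0.99970 to 0.99998). Unless another method is named, log2 differences here and below are edgeR's, after a further scaling of the libraries (TMM). They are not ratios of the RPM means, and can differ from those in size and sign.

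miR-155 had 41.5, 36.6, 35.6 and 28.4 RPM in control sows, 59.99, 28.4 and 38.5 RPM at 0.05, 47.4, 37.7, 33.6 and 27.4 RPM at 10, and 51.5, 21.6, 38.9 and 27.8 RPM at 1000 µg/kg/day. Sow 5 at 0.05 was the highest and sow 13 at 1000 the lowest, and the groups overlapped at each dose. The log2 difference from control was 0.01 (95% CI -0.57 to 0.59) at 1000, 0.15 (-0.42 to 0.73) at 10 and 0.20 (-0.42 to 0.82) at 0.05, with no call (edgeR, adjusted p 0.99970 to 0.99998). These intervals reach at most 0.82 on the log2 scale in either direction, the narrowest of the 7 miRNAs. miR-150 exceeded miR-155 in each sow, by a ratio of 2.21 to 5.53.

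The myeloid miR-223 had 117, 73.0, 130.2 and 61.7 RPM in control sows, 97.7, 68.5 and 60.7 RPM at 0.05, 134, 45.7, 83.7 and 122 RPM at 10, and 126, 18.6, 102 and 117 RPM at 1000 µg/kg/day. Sow 13 was far below all others, with 51 reads (95% Wilson interval 14.2 to 24.5 RPM, counting error only), while the other 3 sows at that dose lay within the control range. The mean was 90.8 ± 49.1 RPM at 1000 against 95.5 ± 33.2 RPM in control (log2 difference -0.07, 95% CI -0.96 to 0.82), and without sow 13 the difference was 0.24. At 10 it was 0.05 (-0.83 to 0.94) and at 0.05 it was -0.37 (-1.34 to 0.60), again with no call (edgeR, adjusted p 0.99970 to 0.99998). Its passenger arm, miR-223-5p, was counted at 1.69 to 8.07 RPM, and the main arm exceeded it 8.50-fold to 42.0-fold, least in sow 13, where it had 6 reads.

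The ratio of miR-150 to miR-223 sets a lymphoid against a myeloid miRNA within a sow, so that a shared scaling drops out. Its range was 0.711 to 1.89 in control sows, 1.36 to 2.29 in sows given 0.05, 0.623 to 3.96 in those given 10 and 0.679 to 4.22 in those given 1000 µg/kg/day. The highest ratios came from sow 13 (4.22) and sow 9 (3.96), in both of which miR-223 was low. miR-150 was high in sow 9 and low in sow 13, so the same ratio stood for different levels. Of the 6 other lymphoid-linked miRNAs described further below, sow 13 had the lowest miR-342-3p (20.8 RPM) and miR-181d (127 RPM) of the 15 sows and the highest miR-28 (187 RPM), and miR-181a, miR-181b and miR-151 lay at or above their medians. The part of the other cell types' miRNAs in the low miR-223 of that sow was not tested.

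miR-142-3p had 73.3, 69.1, 62.5 and 34.7 RPM in control sows, 44.5, 59.0 and 44.8 RPM at 0.05, 56.8, 94.6, 55.5 and 47.0 RPM at 10, and 102, 37.6, 35.2 and 28.1 RPM at 1000 µg/kg/day. At 1000, sow 12 was the highest of the series and the other 3 sows were at or near the low end of control, so the dose group lay on both sides of it. miR-142-5p followed sow by sow, with 52.8, 39.9, 48.5 and 23.8 RPM in control, 31.5, 30.9 and 24.4 RPM at 0.05, 32.7, 65.8, 39.1 and 33.3 RPM at 10, and 70.9, 23.0, 28.2 and 14.8 RPM at 1000 µg/kg/day. Sows 9 and 12 were again the highest and sow 15 the lowest. The log2 differences of miR-142-3p and miR-142-5p were -0.22 (95% CI -1.09 to 0.65) and -0.24 (-1.20 to 0.71) at 1000, 0.22 (-0.64 to 1.08) and 0.19 (-0.75 to 1.14) at 10, and -0.29 (-1.23 to 0.65) and -0.54 (-1.58 to 0.50) at 0.05. None was called by edgeR (adjusted p 0.99970 to 0.99998). Without sow 12 the difference at 1000 was -0.80 for miR-142-3p and -0.87 for miR-142-5p, and without sow 9 the difference at 10 was -0.18 and -0.24, still with no call.

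The matched 5′ end does not hold most reads of the 5p arm of miR-142. Of its 20 to 26 nt reads that begin within 2 nt of the matched start, 71.4% (9086 reads) began 2 nt upstream and 26.4% (3364 reads) at the matched base. The miR-142-3p arm had 71.8% of its reads at the matched base and 25.1% (1724 reads) 1 nt downstream. Of the other 5 miRNAs, miR-150, miR-155, miR-223, miR-146a and miR-146b had 91.4 to 97.8% at the matched base, with 6.77% of miR-146a 1 nt upstream and 5.05% of miR-223 1 nt downstream as their largest other starts. A shifted start moves the seed. The leading reads of the shifted starts are shown with their own bases 2 to 8 in capitals, and were chosen after their counts were seen.
miR-142-5p, 2 nt upstream: cCCATAAAgtagaaagcact
miR-142-3p, 1 nt downstream: gTAGTGTTtcctactttatgga
miR-146a-5p, 1 nt upstream: tTGAGAACtgaattccatgggt
miR-223-3p, 1 nt downstream: gTCAGTTTgtcaaatacccca
The upstream form of miR-142-5p also ends earlier, since its leading read is 20 nt long, the shortest length counted, and any shorter reads of it are not in these values. The 21 nt leading read at the matched start can form 19 base pairs with miR-142-3p in a predicted duplex (-25.1 kcal/mol, RNAduplex), and the upstream read 18 (-22.4 kcal/mol).

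**Figure D2:**
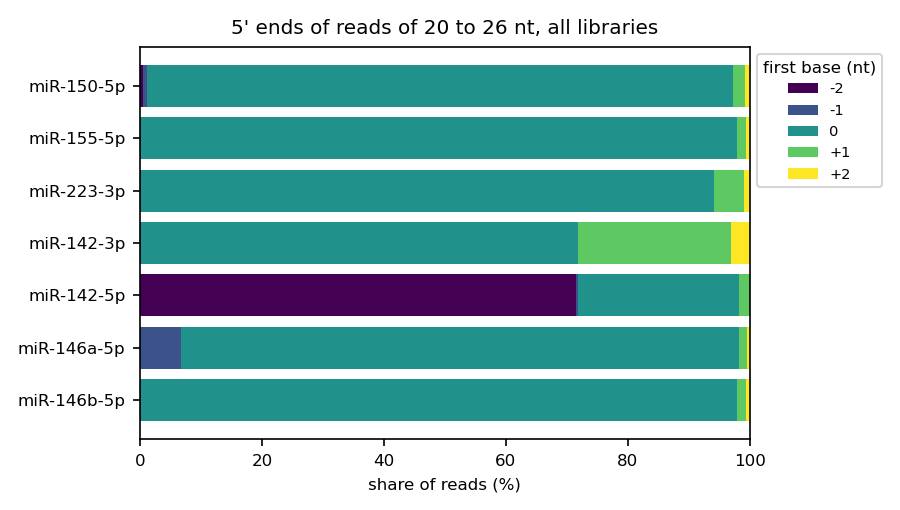
Share of reads (horizontal axis, percent) by first base relative to the matched start (colours, -2 to +2 nt) for each miRNA, over all 16 libraries. miR-142-5p is the exception among the 7, with 71.4% of reads starting 2 nt upstream, and miR-142-3p has 25.1% starting 1 nt downstream.

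The upstream form of miR-142-5p was found in every sow. It had 98.9, 103, 92.1 and 82.3 RPM in control, 101.3, 88.5 and 97.5 RPM at 0.05, 79.7, 123, 98.6 and 95.4 RPM at 10, and 211, 57.7, 120.5 and 70.2 RPM at 1000 µg/kg/day. Sow 12 was the highest and sow 13 the lowest, both at 1000, and the other groups spanned a narrower range. Its log2 difference from control was 0.32 (95% CI -0.32 to 0.96) at 1000, 0.20 (-0.44 to 0.84) at 10 and 0.01 (-0.68 to 0.70) at 0.05, with no call (edgeR, adjusted p 0.99970 to 0.99998). Among reads with either start, the upstream form made up 65.2 to 77.6% in control sows, 74.1 to 80.0% at 0.05, 65.2 to 74.1% at 10 and 71.5 to 82.6% at 1000 µg/kg/day, with overlap at every dose. The choice of start decides which arm leads. At the matched starts miR-142-3p exceeded miR-142-5p 1.24-fold to 1.91-fold, and over all starts within 2 nt the 3p arm was at 0.312 to 0.726 of the 5p arm, below it in all 15 sows.

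The 3′ ends varied as well. At the matched start, miR-142-5p was the most uniform of the 7, with 72.0% of its reads in its leading sequence, and miR-150 followed with 54.3%. miR-146b was the least, with 28.5% in its leading 23 nt read, 25.4% ending 1 nt earlier and 24.3% ending 1 nt later. miR-155 had 31.1% in its leading 23 nt read, and 6.27% of its reads were 25 nt long. miR-223 was also led by 23 nt reads (47.3%), and miR-146a by 22 nt reads (55.4%).

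**Figure D3:**
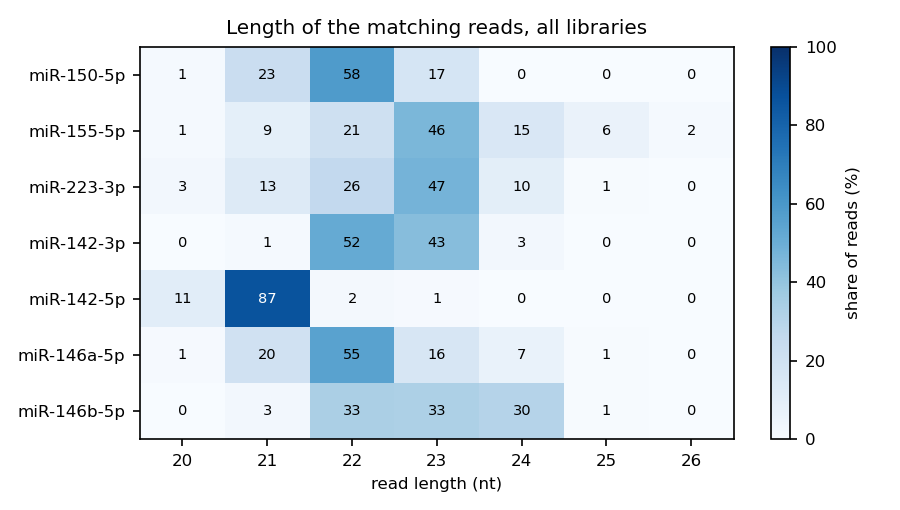
Share of reads (percent, colour and rounded number) by read length in nt (horizontal axis) for each miRNA, over all 16 libraries. miR-142-5p is nearly all 20 and 21 nt, miR-146b is spread over 22 to 24 nt, and miR-155 and miR-223 peak at 23 nt. Reads shorter than 20 nt are not counted.

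For the NF-κB feedback pair, miR-146b showed the largest difference of the 7 miRNAs, which did not pass adjustment. It had 226, 337, 303 and 850.0 RPM in control sows, 393, 208 and 368 RPM at 0.05, 379, 393, 322 and 201 RPM at 10, and 169, 252, 290.2 and 169 RPM at 1000 µg/kg/day. The control mean rests on sow 4, and sows 13 and 14 at 1000 lay above control sow 1, so the groups overlapped. At 1000 the mean was 220.0 ± 60.9 RPM against 429 ± 284 RPM in control (log2 difference -0.84, 95% CI -1.60 to -0.08; SD, n = 4 each), with an unadjusted p of 0.0318 and an adjusted p of 0.99997 by edgeR. An exact two-sided permutation test of log2 RPM gave p = 0.114 (70 splits, smallest possible p 0.0286). Without control sow 4 the log2 difference was -0.39 (unadjusted p = 0.224 by edgeR). Within class A it was -0.83 and within class B, which holds sow 4, -1.79 (adjusted p = 0.955 and 0.0971 by edgeR, each with 1 sow at 1000 and 2 control sows). At 10 and 0.05 the differences were -0.21 (95% CI -0.96 to 0.55) and -0.39 (-1.21 to 0.43), without control sow 4 they were 0.25 and 0.08, and over dose rank the slope was -0.23 log2 per step (unadjusted p = 0.0562, adjusted p = 0.9995 by edgeR).

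miR-146a had 126, 131, 102 and 241 RPM in control sows, 128, 99.999 and 134 RPM at 0.05, 86.8, 166, 88.2 and 61.8 RPM at 10, and 283, 54.8, 135 and 112 RPM at 1000 µg/kg/day. Sow 12 was the highest and sow 13 the lowest, both at 1000, and every dose overlapped control. The log2 difference was 0.02 (95% CI -0.89 to 0.94) at 1000, -0.37 (-1.29 to 0.55) at 10 and -0.30 (-1.29 to 0.69) at 0.05, with no call (edgeR, adjusted p 0.99970 to 0.99998). The difference at 1000 was -0.52 without sow 12. Without control sow 4 the differences were -0.13 at 10 and -0.05 at 0.05, and without sow 9 the difference at 10 was -0.88. The ratio of miR-146b to miR-146a was between 1.80 and 3.52 in control, 2.08 and 3.07 at 0.05, 2.37 and 4.36 at 10, and 0.596 and 4.59 at 1000 µg/kg/day. Sow 12 had the ratio of 0.596 and was the only sow with more miR-146a than miR-146b, and sow 13 of the same dose had the highest ratio. Sow 12 thus combined the highest miR-142-3p, miR-142-5p and miR-146a of the series with a miR-146b at its low end. There, sow 12 (168.7 RPM) and sow 15 (169.4 RPM) did not separate within counting error. Control sow 4 combined the highest miR-146b with the lowest miR-142-3p of its group.

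**Figure D4:**
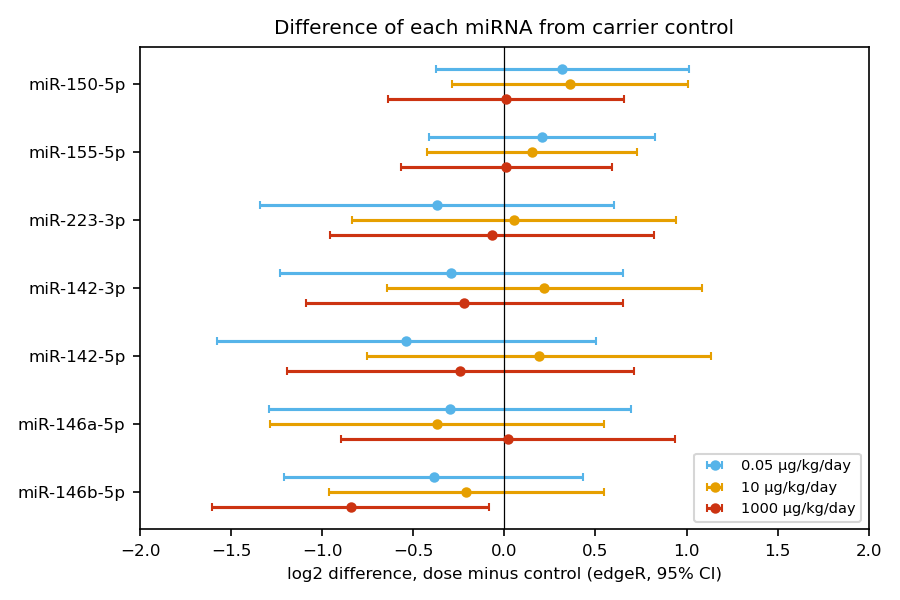
Log2 difference of each miRNA from control (horizontal axis; points with 95% confidence intervals from edgeR) at 0.05, 10 and 1000 µg/kg/day (colours). Only the interval of miR-146b at 1000 µg/kg/day, -1.60 to -0.08, leaves out 0 before adjustment.

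Set against all read groups, none of the 7 miRNAs was called at 1000 µg/kg/day, where 0% of 9951 groups were called by edgeR and 445 groups (4.47%) had an unadjusted p under 0.05. Of the 7, 1 had an unadjusted p under 0.05, miR-146b, which was lower (2.67% of all groups were lower and 1.8% higher by that measure). At 10 µg/kg/day 0 of the 7 were called (0% of all groups) and 0 had an unadjusted p under 0.05 (3.19% of all groups, 2.11% lower and 1.08% higher). At 0.05 µg/kg/day it was 0 of the 7 (0% of all groups) and 0 unadjusted (2.57%, 1.45% lower and 1.13% higher). DESeq2 called 0 of the 7 at each dose. The test of the 3 doses together and the trend over dose rank called 0 of 9951 groups (0% each, with 3.07% and 4.09% at an unadjusted p under 0.05), and DESeq2 called 2 and 0, none of them among the 7. No dose group lay wholly above or below control in any of the 7, while 1.03% of all groups did so above and 1.4% below at 1000, 0.563% and 0.583% at 10, and 2.25% and 1.61% at 0.05 µg/kg/day.

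The median log2 difference of the 7 was -0.07 at 1000, 0.15 at 10 and -0.30 at 0.05 µg/kg/day, beside 0.01, 0.03 and -0.01 over all groups. The comparisons share their control sows. Summed over the 7, the level was 923 ± 277 RPM in control sows, 780.0 ± 119 RPM at 0.05, 793 ± 183 RPM at 10 and 686 ± 217 RPM at 1000 µg/kg/day (SD over sows), and miR-146b, with 17.4 to 63.6% of the sum, sets much of it. Sow 12 gave the low end of that share and control sow 4 the high end. The precision is that of 3 or 4 sows a group, and the intervals show which changes remain possible. At 1000 µg/kg/day they run to 0.66 above and 0.64 below control on the log2 scale for miR-150, and to 0.94 and 0.89 for miR-146a.

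The 2 arms of miR-142, which come from 1 precursor, varied together across the 15 sows. Their log2 RPM had a Pearson r of 0.946 and a Spearman rho of 0.921 (permutation p = 1e-05 for both, the smallest that 100000 resamples can give, and adjusted p = 0.00021 over 21 pairs of the 7 miRNAs). The r was 0.907 without the 2 sows farthest from the median, 0.958 within class A and 0.965 within class B. That median is of 1 miRNA of a pair, miR-142-3p here and the first named in the pairs below. Of the other 20 pairs, miR-150 with miR-142-3p passed by Pearson's r (0.703, permutation adjusted p = 0.0378) and not by Spearman's rho (0.639, permutation adjusted p = 0.0824). It had an r of 0.675 without the 2 farthest sows, 0.781 within dose groups, 0.576 in class A and 0.307 in class B. With 6 sows each, the classes are too small to show whether it holds within them. miR-150 with miR-155, the lymphoid pair, had an r of 0.654 and a rho of 0.65 (permutation adjusted p = 0.0619 and 0.0824), 0.671 without the 2 farthest sows, with -0.12 in class A and 0.84 in class B. miR-150 with miR-223 had an r of 0.0812 and a rho of -0.0607 (permutation p = 0.788 and 0.831, adjusted p = 0.788 and 0.831), 0.376 without the 2 farthest sows, -0.417 in class A and -0.758 in class B. miR-146a with miR-146b had an r of 0.300 and a rho of 0.254 (permutation adjusted p = 0.482 and 0.55). Its r was 0.69 without the 2 sows farthest by miR-146a, which are sows 12 and 13 and not control sow 4. It was -0.68 in class A, which holds sow 12, and 0.819 in class B, which holds sow 4. Class C has 3 sows, too few for a value. All RPM values of a sow share 1 total.

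**Figure D5:**
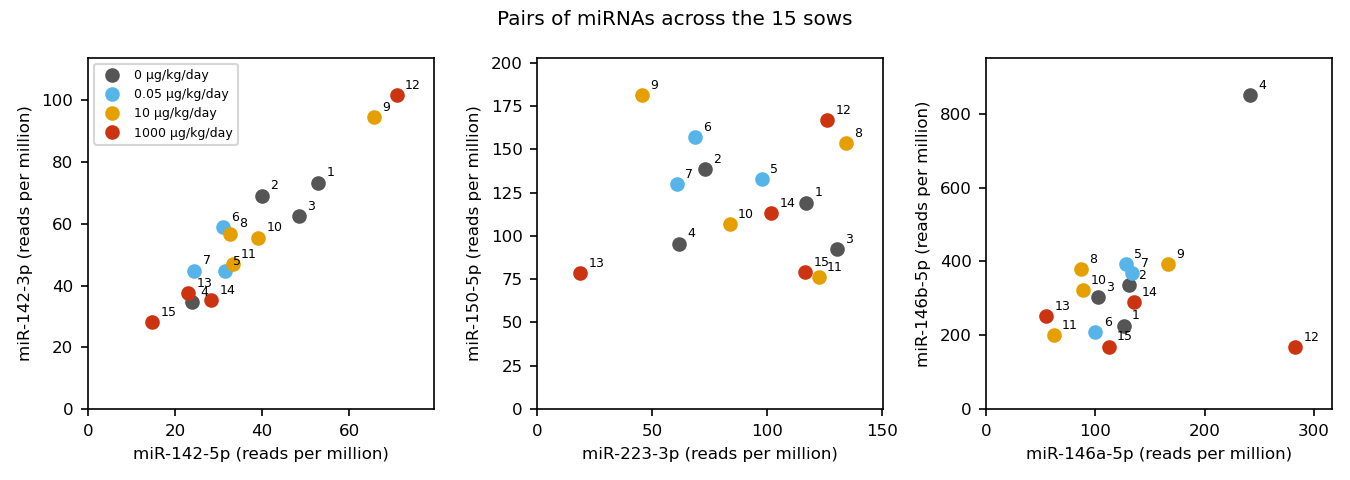
Levels in RPM of 3 pairs of miRNAs on both axes, 1 point per sow with its number, coloured by dose. The arms of miR-142 lie along a line (r = 0.946), miR-150 shows no such line with miR-223, with sows 9 and 13 at the low end of miR-223, and in the miR-146 pair control sow 4 and sow 12 stand away from the other 13 sows.

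Among 36 named miRNAs with a mean of at least 10 RPM, those most like each of the 7 over the 15 sows were ranked by Spearman rho, as a description with no test. For miR-150 they were miR-214 (0.78), miR-342-3p (0.72) and miR-181d (0.66). For miR-155 they were miR-181d (0.70), miR-199a-5p (0.67) and miR-150 (0.65). For miR-223 the closest was miR-9 (0.57), then miR-429 (0.42) and miR-142-5p (0.38), and for miR-142-3p after its own other arm they were miR-141 (0.79) and miR-21 (0.68). For miR-142-5p they were miR-21 (0.72) and miR-141 (0.67). For miR-146a they were miR-200b (0.58), miR-181d (0.52) and miR-155 (0.50), and for miR-146b miR-132 (0.50), miR-181d (0.36) and miR-342-3p (0.33). Of these, miR-342-3p and miR-181d are lymphoid-linked, miR-214 and miR-199a-5p belong to stroma and smooth muscle, and miR-429, miR-141 and miR-200b to epithelium. Against summed lists, miR-150 had a rho of 0.28 with the lymphoid-linked miRNAs and 0.26 with those of stroma and smooth muscle. It had 0.50 with each of the epithelial, endothelial and myeloid-linked lists, and 0.62 with the list of inflammation. Abundant miRNAs set much of these sums. On average miR-21 held 109238 of the 117120 RPM of the inflammation list, and miR-27a 2489 of the 2624 RPM of the myeloid-linked list. miR-143 held 55219 of the 69325 RPM of stroma and smooth muscle, and the endothelial list is miR-126 alone. All of these values share their libraries and their totals.

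Other miRNAs linked to the same cells or signals did not pass the test either. In the lymphoid-linked list (miR-181a, miR-181b, miR-181d, miR-342, miR-28 and miR-151), 0 of 6 were called in either direction at any dose by edgeR or at an unadjusted p under 0.05, with a median log2 difference of 0.11 at 1000, 0.08 at 10 and 0.19 at 0.05 µg/kg/day. Its smallest p-values at 1000 were those of miR-151-3p (log2 0.31, 95% CI -0.14 to 0.75, unadjusted p = 0.170 by edgeR) and miR-342-3p (log2 -0.43, -1.18 to 0.32, unadjusted p = 0.244 by edgeR). In the myeloid-linked list, 3 of 4 were tested and 0 called, with medians of 0.18, 0.47 and 0.25, and miR-27a (log2 0.22, unadjusted p = 0.388 by edgeR) and miR-503 (log2 0.18, unadjusted p = 0.558 by edgeR) had the smallest p-values at 1000. miR-338, the member not tested, had at most 1.33 RPM.

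In the list of other miRNAs of inflammation and NF-κB signalling, 0 of 7 were called, with medians of 0.02 at 1000, 0.20 at 10 and 0.08 at 0.05 µg/kg/day. miR-187-3p, which monocytes make in response to interleukin-10 in humans, had a log2 difference of 0.92 at 1000 (95% CI 0.03 to 1.81, unadjusted p = 0.0424, adjusted p = 0.99997 by edgeR) at levels of 1.13 to 6.21 RPM over the series. miR-125b, the next, had 0.23 (unadjusted p = 0.293 by edgeR). miR-21, which is induced in many inflamed tissues, had -0.25 (95% CI -0.80 to 0.29).

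Circulating blood carries leukocytes and red cells together, and the red-cell miRNAs are set beside those of leukocytes for that reason. miR-451a, miR-144 and miR-486 summed to 1175 to 1468 RPM in control sows, 1402 to 2196 at 0.05, 1196 to 2180.2 at 10 and 897 to 3592 at 1000 µg/kg/day. At 1000 µg/kg/day all 3 had a positive log2 difference from control, with a median of 0.84. By edgeR, miR-451a had a log2 difference of 0.84 (unadjusted p = 0.0161) and miR-486 of 0.86 (unadjusted p = 0.00904), and neither was called (adjusted p = 0.99997 by edgeR for both). The 7 miRNAs had a median of -0.07 in the same comparison. Sow 15 had the lowest red-cell sum (897 RPM) and the lowest miR-142 of both arms, and sow 13 had the highest sum (3592 RPM) and the lowest miR-223. Over all 15 sows, the Spearman rho with the red-cell sum was -0.17 for miR-142-3p, -0.19 for miR-142-5p and 0.03 for miR-223. It was 0.04 for miR-150, 0.29 for miR-155, 0.02 for miR-146a and 0.14 for miR-146b. On average miR-451a held 1619 of the 1727 RPM of the red-cell sum. The part of blood in the levels was not tested.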

How the data were processed

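Small RNA of endometrium from 15 sows (16 libraries) was analysed. The authors deposited 1 file per library with each read sequence and its count, without normalization. TRIzol was used for the RNA and a NEBNext small RNA kit for the libraries, per the labels' protocols. The submitters' processing notes name FastQC and builds of the pig (Sscrofa10.2), human, cattle and mouse genomes. The aligner, the adapter step and whether counts were filtered are not given in the sources used here, and deposited reads were 17 to 49 nt long.

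Reads of 20 to 26 nt were grouped by their first 20 nt, and groups with at least 30 reads were kept (23707). A miRNA was the most abundant group with its known seed (bases 2 to 8) and, where families share a seed, with the distinguishing bases. Reads with other 5′ ends or with a mismatch in the first 20 nt were not counted for a member, and 1-base variants held 3.35 to 6.70% of the reads with up to 1 mismatch. Levels are reads per 1000000 (RPM) of 18 to 26 nt reads, and the 2 extractions of sow 7, whose RPM differed 0.857-fold to 1.40-fold (second over first), were summed. Depth was 4497096 to 18525580 reads per sow. Reads carry no molecular identifiers, so Wilson intervals cover counting error only.

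The main test was edgeR 4.0.16 (R 4.3.3), with filterByExpr by group (9951 groups, 84.3% of 18 to 26 nt reads), TMM on the 18 to 26 nt totals (factors 0.803 to 1.17), glmQLFit with robust estimation over all 15 sows, glmQLFTest and Benjamini-Hochberg adjustment over all groups, with calls at an adjusted p under 0.05. The biological coefficient of variation was 0.324. The test was also run on simulated counts. Log2 RPM used a pseudocount of 1 in the permutation tests (scipy 1.17.1). Duplexes were predicted with RNAduplex of ViennaRNA 2.7.2. The alternatives were DESeq2 1.42.0, other scalings, no filter, 2 groups only, length class, other matching and leaving out each sow. Only separate animals count as replicates, and sow numbers run from 1 to 15 with none shared between groups.

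The members, lists and tests were chosen with earlier results of these data known. By the naming rule the miRNAs described are the 7 sequences, the other arm of miR-223, for each the 3 named miRNAs with the highest Spearman rho, and in each list the 2 of smallest p at the highest dose. The likeness rule was meant for annotated mature miRNAs and was applied to the 42 named ones, of which 36 had a mean of at least 10 RPM. Marker miRNAs of red cells, epithelium, stroma, endothelium, muscle and liver, and miR-338, which was not tested, are named outside that rule. The shifted starts, the red-cell values and the other sow-level contrasts were chosen after their values were seen.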

Additional observations from a re-analysis of the deposited data

Results flagged for a closer look

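In the 1000 µg/kg/day group, the miR-142-3p level of sow 12, 102 RPM (101.547), lay apart from the other 3 sows, at 28.1 to 37.6 RPM, by more of the group's range than Dixon's critical value for 4 samples allows. The same sow had the highest miR-142-5p and miR-146a of the series. In the 10 µg/kg/day group, the ratio of miR-142-3p to miR-142-5p was 1.74 in sow 8, apart from 1.41 to 1.44 in the other 3 sows. That ratio rests on 302 and 174 reads, and ratios of up to 1.91 were found in other groups. Such gaps arise by chance in about 1 of 20 groups. The check covered each of the 7 miRNAs and several of their ratios in every group of 4 sows. A few such gaps would thus arise by chance, and the 2 given here are not told apart from these.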

How the results depend on the processing

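None of the 7 miRNAs was called at any dose under any of the 30 alternatives. The smallest adjusted p was 0.0971, for miR-146b at 1000 µg/kg/day within length class B. Of 630 recomputed log2 differences, 549 kept their direction and 81 changed sign, most of them from values near 0. The cause was not tested.

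Within class A (sows 1, 2, 5, 8, 9 and 12) the differences at 1000 were 0.43 for miR-142-3p, 0.54 for miR-142-5p and 0.34 for miR-223, those at 10 were 0.17 for miR-146a, 0.59 for miR-146b and -0.0044 for miR-223, and those at 0.05 were 0.28 for miR-146b and -0.16 for miR-150. Within class B (sows 3, 4, 7, 10, 11 and 15) they were -0.64 for miR-146a, -0.30 for miR-150, -0.27 for miR-155 and 0.20 for miR-223 at 1000 and -0.0030 for miR-155 at 10. At 1000, with class as a covariate, miR-150 was at -0.064 and miR-223 at 0.13. Class C (sows 6, 13 and 14) holds no control sow. Sows 13 and 14 of 1000 thus have no control of their own class in that fit, and it cannot fully separate class from dose. With starts shifted by up to 2 nt, miR-142-5p was at 0.17 at 1000. In the exact permutation test of log2 RPM, miR-146a was at -0.19, miR-150 at -0.077 and miR-155 at -0.086 at 1000, and miR-223 at -0.031 at 10. At 1000, miR-146a, miR-150 and miR-155 were at -0.016, -0.028 and -0.023 without filterByExpr, at -0.0094, -0.013 and -0.011 with the sows of the 2 groups only, and at -0.038, -0.026 and -0.023 on the 18 to 26 nt total without TMM. On the first 18 nt, miR-150 was at -0.0056 and miR-155 at -0.038 at 1000, and on all deposited reads miR-146a was at -0.0082 and miR-223 at 0.014.

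Leaving out 1 sow at a time moved the difference at 1000 between -0.80 and 0.013 for miR-142-3p, -0.87 and 0.043 for miR-142-5p, -0.52 and 0.25 for miR-146a, -0.27 and 0.18 for miR-150, -0.24 and 0.15 for miR-155, and -0.28 and 0.24 for miR-223. For miR-146b at 1000 it stayed between -1.04 and -0.39. At 10 it moved between -0.18 and 0.40 for miR-142-3p, -0.24 and 0.36 for miR-142-5p, -0.44 and 0.25 for miR-146b, and -0.16 and 0.23 for miR-223, and stayed on 1 side of 0 between -0.88 and -0.13 for miR-146a, 0.021 and 0.58 for miR-150, and 0.0088 and 0.31 for miR-155. At 0.05 it moved between -0.59 and 0.079 for miR-146b and -0.069 and 0.36 for miR-155, and stayed on 1 side of 0 between -0.52 and -0.18 for miR-142-3p, -0.75 and -0.40 for miR-142-5p, -0.46 and -0.055 for miR-146a, 0.14 and 0.48 for miR-150, and -0.55 and -0.18 for miR-223. A group left with 1 sow within a class was assumed to vary like the others.

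Over all read groups, the counts of calls at 1000 µg/kg/day were 0 as reported, 1 with the sows of the 2 groups only, 1 in class A alone and 39 in class B alone. At 10 they were 0 as reported, 1 by DESeq2, 1 without filterByExpr, 1 in class A alone, 171 in class B alone, and 0 to 1 when leaving out 1 sow at a time (1 without sow 8). At 0.05 they were 4 (class A alone) and 15 (class B alone). For any dose they were 2 by DESeq2, 1 without filterByExpr, 4 in class A alone and 239 in class B alone, and for the trend 1 (class A alone) and 2 (class B alone).

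The alternative restricted to annotated pig miRNAs was not run for want of a table, and shares of 5′ ends and lengths were not recomputed with mismatches. No paired analysis was possible because the sow numbers of the groups do not repeat. With 3 or 4 sows a group and between 51 and 1229 reads of miR-223 a sow, the spread between sows and not counting limits these comparisons.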

Other observations

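The muscle miRNAs miR-1, miR-133a and miR-206 summed to 160 to 1270 RPM at 1000 µg/kg/day against 232 to 770.0 RPM in control sows, with the highest sum in sow 13. Epithelial miR-200 family and miR-141 levels summed to 27383 to 36627 RPM at 1000 µg/kg/day against 24420 to 27793 RPM in control sows, and 0 of these 5 miRNAs were called there (edgeR, 0 at an unadjusted p under 0.05, 4 of 5 higher, median log2 difference 0.16).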
